A study of Mus musculus with 6 samples.

Results

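The immediate-early genes *Fos*, *Fosb*, *Jun*, *Junb*, *Jund*, *Egr1*, *Ier2*, *Atf3*, *Nr4a1* and *Zfp36* were followed in stromal cells of the mouse omentum. They were chosen by name, as genes known to respond to enzymatic and mechanical dissociation of a tissue, and are 10 of the 23352 genes listed for each library. Omental tissue from C57BL/6 mice of WT genotype was minced, digested with Liberase TM and DNase I, dispersed by pipetting and passed through a strainer, and the stained cells were sorted by flow cytometry into 6 populations. RNA from each population gave 1 library, so every value is that of a single library, no spread between replicates could be measured and no p-value is given. Cells of P1, P2 and P3 were sorted as CD45-CD140a+CD105+ and differed in aldehyde dehydrogenase (ALDH) activity, which was high (ALDH high) in P1, intermediate in P2 and low in P3. CD45-CD140a+CD105- cells were divided into P4, of intermediate activity, and P5, of low activity, and P6 cells were CD45-, low for CD140a and positive for the activity. Age, the number of mice behind a library and the time of digestion are not given in the sources used here.

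All 6 libraries came from digested and sorted cells, and undissociated omentum was not analysed here. The part of each level that arose during dissociation and the part that the cells had in the tissue therefore cannot be told apart. Values are FPKM, that is, fragments per kilobase of exon at a common number of mapped reads, as deposited, so that levels can be compared between genes per length. The sum of FPKM over all genes was lowest in P6, at 384939, and highest in P1, at 407807. Depth, estimated from the steps between low FPKM values, ran, from P1 to P6, at 53.4, 61.7, 60.7, 58.6, 61.7 and 37.0 M reads. The estimated reads behind a value of the 10 genes ran from 17173 for *Jund* in P6 to 311302 for *Zfp36* in P3, and 95% intervals of ratios were computed from them. These intervals cover counting error only.

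Immediate-early genes are switched on within minutes of a stimulus, without the need for new protein. Kinases of the MAPK family act on transcription factors that already sit at their promoters, among them SRF, its ELK partners and CREB, and the RNAs made are short-lived. The proteins of the FOS and JUN families and their relatives such as ATF3 pair to form AP-1, and in solid tissues including fat the whole group is known to respond to mincing, warm enzyme digestion and sorting.

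All 10 genes stood among the most abundant transcripts in every population. Each of the 10 had at least 100 FPKM in each of the 6 libraries, a level that 3.14% of the 12904 genes with at least 1 FPKM in a library met (405 genes). The 10 genes were chosen with earlier results of these data known, so this count is a description only. All 10 were among the 250 highest genes of every library. The lowest value was 251 FPKM for *Jund* in P3 and the highest 2317 FPKM for *Fos* in P6. *Fos* ranked between 6 and 12 among all genes, *Zfp36* between 8 and 19, *Junb* between 9 and 18 and *Egr1* between 24 and 33. The lowest rank among the 10 was that of *Jund* in P1 to P5, between 182 and 226, and that of *Nr4a1*, 178, in P6. Together the 10 genes held, from P1 to P6, 2.35%, 2.53%, 2.64%, 2.19%, 2.28% and 2.54% of all FPKM. In these bulk libraries, a smaller share of cells that express a gene and less of its RNA in each cell cannot be told apart.

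**Figure D1:**
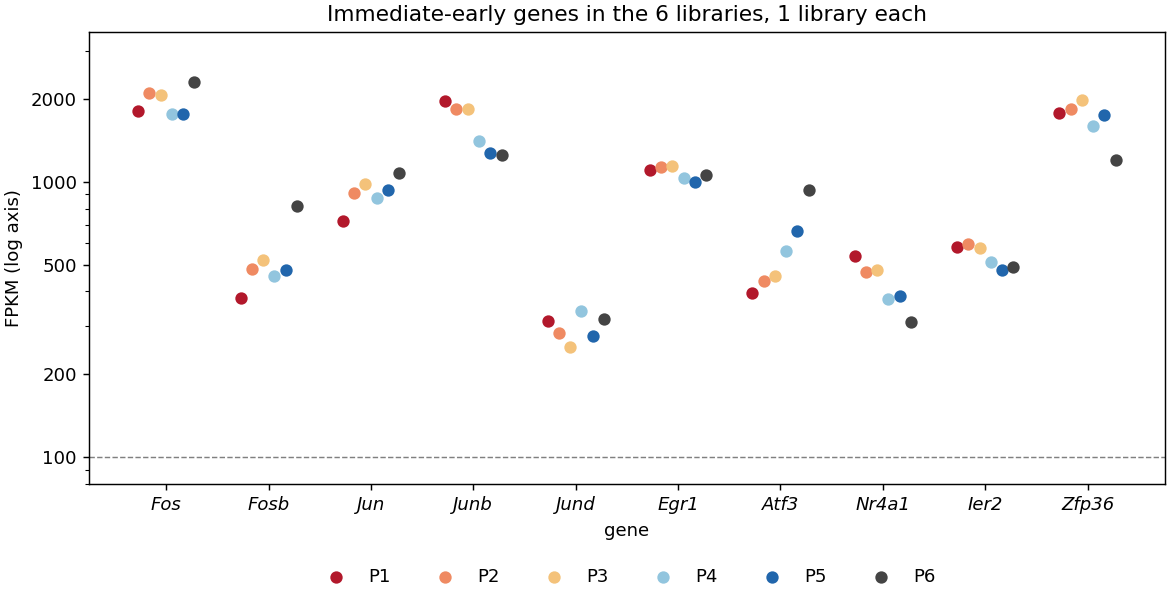
FPKM of the 10 genes (log axis) in the libraries P1 to P6, 1 point for each library, with the level of 100 FPKM as a dashed line. All points lie between 251 FPKM (*Jund* in P3) and 2317 FPKM (*Fos* in P6), and *Atf3* and *Fosb* have their highest point in P6, as they had under every scaling used.

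Directions were also read under 4 other scalings of the libraries, namely division by *Gapdh*, quantile normalization, the median of ratios and a common sum of FPKM. *Gapdh*, a glycolytic enzyme often used as a reference, had 214, 218, 224, 302, 326 and 270.4 FPKM in P1 through P6. Division by it moved the median log2 ratio of all genes by 0.47 for P2 over P4, 0.53 for P3 over P5, 0.11 for P4 over P5 and −0.11 for P6 over the mean of P1 to P5. Quantile normalization moved it by 0.11 for P2 over P4 and −0.11 for P6, and all other shifts were below 0.1. Log2 values, and the highest-to-lowest ratios over all genes and over lists, were computed after 0.1 FPKM had been added. Ratios given for single genes, with their intervals, were taken without it.

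Among the FOS proteins, *Fos* encodes the classical partner of JUN. It had 1810.5, 2102, 2062, 1773, 1761 and 2317 FPKM from P1 to P6. It was highest in P6 and lowest in P5, by a ratio of 1.32 (95% interval 1.31 to 1.32), although P2 was highest after division by *Gapdh* or quantile normalization and P4 was lowest with a common sum. *Fosb*, which encodes a further FOS protein and a truncated form of it, had 378, 483, 520.4, 455, 479 and 818 FPKM in P1 through P6. P6 stood well apart from P1 to P5 and was the highest library under all 4 other scalings. The ratio of P6 to P1, the lowest library, was 2.16 (2.14 to 2.19), and after division by *Gapdh* the lowest library was P5. Without P6, the ratio of the highest to the lowest library of *Fosb* was 1.38.

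The JUN proteins can pair with each other or with FOS proteins. *Jun* had 719, 914, 984, 871, 936 and 1078.5 FPKM from P1 to P6. The lowest library was P1 and the highest P6, by a ratio of 1.5004 (1.49 to 1.51), whereas after division by *Gapdh* the lowest was P5 and the highest P3. *Junb*, whose protein can restrain JUN on some promoters, had 1961, 1834, 1846, 1409.7, 1277 and 1248 FPKM in P1 through P6. The values fell into a higher group, P1 to P3, and a lower group, P4 to P6. P1 was the highest library under all scalings, the lowest was P6 or, with a common sum or *Gapdh*, P5, and the ratio of P1 to P6 was 1.57 (1.56 to 1.58). P2 and P3 could not be told apart by counting, with a ratio of 0.994 (0.987 to 1.00002). *Jund*, the JUN gene that resting cells commonly express, had 312, 281, 251, 339, 275 and 316 FPKM from P1 to P6. It ran from P3 to P4 by a ratio of 1.35 (1.33 to 1.38), and its highest library was P1 with the median of ratios or *Gapdh* and P6 with quantile normalization, while its lowest was P5 with *Gapdh*.

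*Atf3* encodes a stress-induced bZIP factor that pairs with JUN proteins and often represses its targets. It had 393, 436, 455, 559, 665 and 934 FPKM in P1 through P6. As deposited, each library stood above the one numbered before it, and P6 was highest and P1 lowest under all scalings. The ratio of P6 to P1 was 2.38 (2.35 to 2.41), the widest range of the 10 genes as deposited, and the ratio of the highest to the lowest library was 1.69 without P6.

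*Egr1* encodes a zinc finger factor induced through SRF. It had 1106, 1136, 1143, 1031, 998 and 1060.5 FPKM from P1 to P6. This was the narrowest range of the 10 as deposited, a ratio of 1.14 (1.14 to 1.15) between P3 and P5. The highest library was P1 with the median of ratios, P2 with *Gapdh* and P5 with quantile normalization, which also made P1 the lowest. *Nr4a1*, an orphan nuclear receptor also known as NUR77, had 537, 471, 479, 375, 384 and 310.2 FPKM in P1 through P6. P1 was highest and P6 lowest under all scalings, with a ratio of 1.73 (1.71 to 1.76).

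*Ier2*, a nuclear protein of less defined role, had 581, 594, 576, 509.6, 479 and 491 FPKM from P1 to P6. P1 to P3 lay above P4 to P6 and the ratio of P2 to P5 was 1.24 (1.22 to 1.26), but P1 was highest with the median of ratios, and with quantile normalization P3 was highest and P1 lowest. *Zfp36* encodes tristetraprolin, which binds AU-rich elements in mRNA and speeds the decay of inflammatory transcripts. It had 1777, 1840.5, 1980.1, 1593, 1752 and 1203 FPKM in P1 through P6. P6 was lowest and P3 highest under all scalings, by a ratio of 1.65 (1.64 to 1.66).

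**Figure D2:**
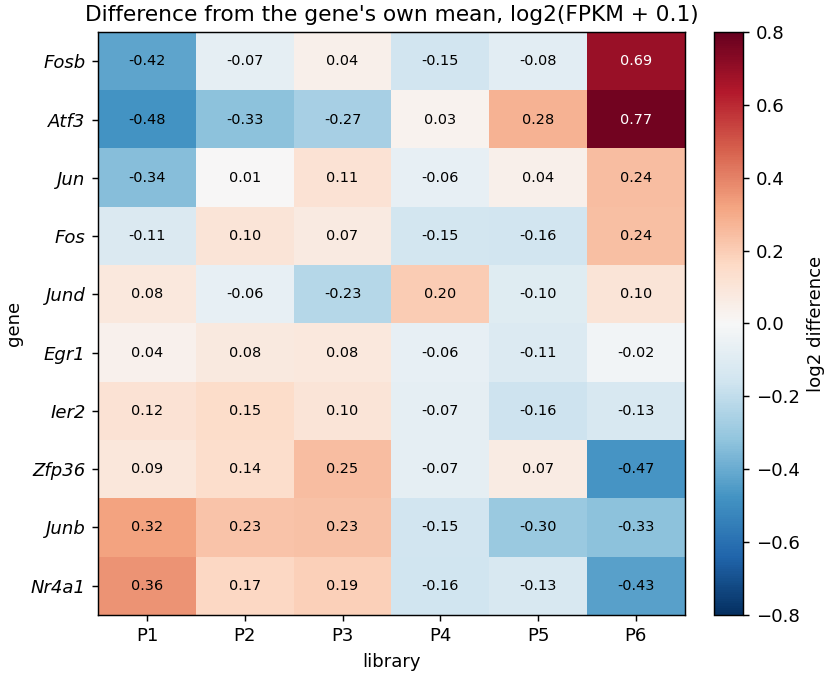
Difference of each library from the gene's own mean over P1 to P6, on the log2(FPKM + 0.1) scale, for the 10 genes (vertical axis) and 6 libraries (horizontal axis). In P6 the differences run from 0.77 for *Atf3* to −0.47 for *Zfp36*, and these genes were highest and lowest, respectively, in P6 under all scalings.

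The ratio of the highest to the lowest library reached 2 for *Fosb* and *Atf3*, 2 of the 10 genes, against 37.4% of the 12904 genes tested. Without P6 it reached 2 for 0 of the 10, against 26.4% of 12461 genes. After scaling by the median of ratios it did so for 1 gene, *Atf3*, against 36.6% of all genes, and after division by *Gapdh* for *Fosb*, *Junb* and *Nr4a1*, against 41.1%. The median ratio was 1.54 over the 10 genes, 1.63 over all genes tested and 1.51 over the 405 genes that kept at least 100 FPKM in every library, of which 20.7% reached 2. *Egr1* lay low in this distribution, with 3.83% of all genes at a smaller ratio, followed by *Ier2* with 14.6%, *Fos* with 23.7% and *Jund* with 27.9%. *Jun* (41.8%), *Junb* (46.6%), *Zfp36* (50.8%) and *Nr4a1* (54.3%) lay near the middle, and *Fosb* (65.8%) and *Atf3* (69.1%) above it.

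**Figure D3:**
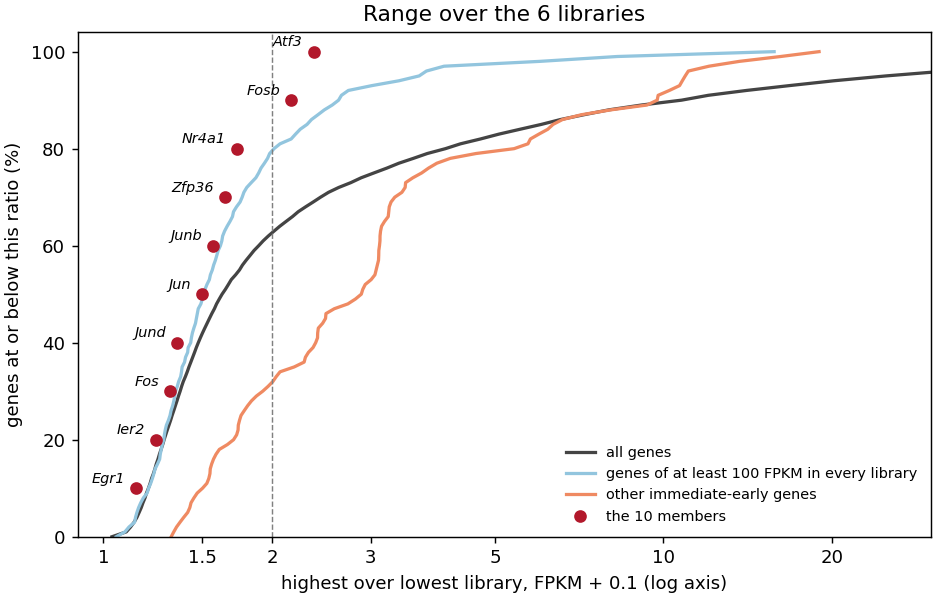
Cumulative share of genes (%) by the ratio of the highest to the lowest library (log axis, FPKM + 0.1), as deposited, for all 12904 genes, the 405 genes of at least 100 FPKM in every library and 57 other immediate-early genes as lines, with the 10 genes as points and a ratio of 2 as a dashed line. The points run from 1.14 (*Egr1*) to 2.38 (*Atf3*), and *Fosb* and *Atf3* lie past 2, which neither did without P6.

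ALDH activity was compared at matched CD105 in P1 over P2, P2 over P3 and P4 over P5. These comparisons share libraries with each other and with those of CD105. Between P1 and P2, 0 of the 10 genes differed by at least 2 times, against 0.957% of 11803 genes higher and 4.23% lower. The higher genes made up 18.5% of these calls over all genes as deposited and 29.4% after quantile normalization. *Fosb* had a ratio of P1 to P2 of 0.783 (0.776 to 0.790), *Jun* of 0.787 (0.781 to 0.792), *Fos* of 0.861 and *Atf3* of 0.901, while *Nr4a1* had 1.14 (1.13 to 1.15), *Jund* 1.11 and *Junb* 1.07. These 7 kept their direction under the other 4 scalings, and *Egr1*, *Ier2* and *Zfp36*, between 0.965 and 0.979, rose above 1 with the median of ratios. The median log2 ratio was −0.04 over the 10 genes and −0.05 over all genes, but −0.15 and 0.03 after quantile normalization. Markers of pancreatic acinar cells also differed between P1 and P2, with 19 of 19 at least 2 times lower in P1. So were 4 of 6 mural and 2 of 7 myeloid markers, with 0 higher. Higher by at least 2 times in P1 were 2 of 10 fibroblast and 2 of 4 erythroid markers, with 0 lower. The fibroblast markers include *Col3a1*, whose value in P2 is doubtful. The erythroid ones were *Hba-a2* and *Hbb-b1*, near 0 in P2 at 0.00752 and 2.65e-04 FPKM. The other 2 were lower in P1 than in P2, *Hba-a1* at 35.2 against 43.8 FPKM and *Hbb-b2* at 10.4 against 15.4. The summed erythroid level was 60.0 FPKM in P1 and 59.5 in P2.

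Between P2 and P3, again 0 of the 10 passed 2 times, against 1.09% of 11980 genes higher and 2.56% lower. The ratios of P2 to P3 lay between 0.928 for *Fosb* and 1.12 for *Jund*. *Fosb*, *Jun*, *Atf3* and *Zfp36* were below 1 and *Jund* above 1 under all scalings, and the other 5 turned under at least 1 of them. Between P4 and P5, 0 of the 10 passed, against 3.93% of 12022 genes higher and 1.44% lower. *Jund* had the highest ratio of P4 to P5, 1.23 (1.21 to 1.26), and *Atf3* the lowest, 0.840 (0.831 to 0.849), and both kept their direction under all scalings. *Junb*, at 1.10, and *Zfp36*, at 0.909, turned under none but were level after quantile normalization, and the other 6 genes turned under at least 1 scaling. Median log2 ratios of the 10 genes and of all genes were −0.02 and −0.03 for P2 over P3 (−0.09 and 0.02 after quantile normalization), and −0.01 and −0.04 for P4 over P5.

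CD105 was compared at matched ALDH activity in P2 over P4 and P3 over P5. At intermediate activity, 0 of the 10 genes passed 2 times, against 4.90% of 12181 genes higher and 7.63% lower. At low activity, the count was again 0, against 7.33% of 12152 genes higher and 6.29% lower. Over all genes, the higher ones made up 39.1% of the calls for P2 over P4, or 67.3% after division by *Gapdh*, and 53.8% for P3 over P5, or 80.5% after it. *Junb* had the highest ratio in both, 1.30 (1.29 to 1.31) for P2 over P4 and 1.45 (1.44 to 1.46) for P3 over P5, and it passed 2 in the latter after division by *Gapdh*, which moved all genes upward. *Nr4a1* followed with 1.26 and 1.25, *Ier2* with 1.17 and 1.20, *Fos* with 1.19 and 1.17 and *Zfp36* with 1.16 and 1.13. These 5 genes were higher in the CD105+ library of both pairs under all scalings.

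*Egr1* had 1.10 for P2 over P4 and 1.14 for P3 over P5, where quantile normalization turned it. *Fosb* (1.06 and 1.09) and *Jun* (1.05 and 1.05) turned in both pairs under quantile normalization. *Jund* (0.830 and 0.913) turned in both under *Gapdh*. *Atf3* was lower in the CD105+ library, at 0.780 (0.771 to 0.790) for P2 over P4 and 0.684 (0.676 to 0.692) for P3 over P5, and under *Gapdh* it turned in P2 over P4 and was nearly level in P3 over P5, at a log2 ratio of −0.0069. The median log2 ratio of the 10 genes was 0.17 for P2 over P4 and 0.19 for P3 over P5, with −0.08 and −0.09 over all genes. It was above that of all genes under each scaling, at 0.07 against 0.03 and 0.06 against −0.02 after quantile normalization and 0.65 against 0.39 and 0.73 against 0.44 after division by *Gapdh*. Mesothelial and acinar markers were lower in the CD105+ library of both pairs, and their part in these differences was not tested.

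Read as an order of libraries, P1 to P3 each lay above both P4 and P5 for 6 of the 10 genes, *Fos*, *Junb*, *Egr1*, *Ier2*, *Nr4a1* and *Zfp36*, against 17.6% of the 12904 genes. P1 to P3 each lay below both for 1 gene, *Atf3*, against 38.0%. The CD105+ and CD105- libraries overlapped for *Fosb*, *Jun* and *Jund*. Of the 6 genes, *Junb* and *Nr4a1* kept this order under all scalings, *Egr1* and *Ier2* lost it under quantile normalization, and *Fos* and *Zfp36* lost it under that and a common sum. *Atf3* lost its order after division by *Gapdh*. The shares of all genes moved with the scaling too. After division by *Gapdh*, 8 of the 10 were above and 0 below, against 68.0% and 8.71% of the 12904 genes, and after quantile normalization 2 were above and 2 below, against 27.2% and 25.0%. With the median of ratios 6 were above and 1 below, against 26.5% and 25.9%, and with a common sum 4 and 1, against 18.8% and 33.8%.

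P6, low for CD140a, was compared with the mean of P1 to P5. Again 0 of the 10 genes passed 2 times, against 12.0% of 12625 genes higher and 9.25% lower. *Atf3*, with a ratio of 1.86 (1.85 to 1.88), and *Fosb*, with 1.77 (1.76 to 1.78), came nearest, and *Fosb* passed 2 after quantile normalization. *Fos* and *Jun* had 1.22 each and *Jund* 1.08. *Zfp36* had 0.673 (0.668 to 0.677), *Nr4a1* 0.690 (0.682 to 0.699), *Junb* 0.749 and *Ier2* 0.896. These 9 genes kept their direction under all scalings, and *Egr1*, at 0.979, turned with a common sum. P6 was the highest library for 4 of the 10, *Fos*, *Fosb*, *Jun* and *Atf3*, against 37.7% of all genes, and the lowest for 3, *Junb*, *Nr4a1* and *Zfp36*, against 25.6%. For *Atf3*, *Fosb*, *Nr4a1* and *Zfp36* this place of P6 held under all scalings, for *Fos* and *Jun* it was lost after division by *Gapdh*, for *Fos* also after quantile normalization, and for *Junb* with a common sum or *Gapdh*. The median log2 ratio of the 10 genes was 0.04, against 0.09 over all genes, an order that quantile normalization reversed, with 0.12 against −0.02.

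Markers of other cell types moved with P6, and some also set P2, P4 and P5 apart. Of 12 mesothelial markers, 11 were found and 10 reached 1 FPKM, with a summed level of 76.1, 97.4, 154, 1032, 834 and 3156 FPKM from P1 to P6. They were at least 2 times lower for 9 of 10 in P2 over P4 and 8 of 9 in P3 over P5. *Upk3b* was the most abundant, at 1139.8 FPKM in P6, and *Cdh1* was at or near 0 in all libraries. Of 20 pancreatic acinar markers, led by *Amy2a5*, 19 reached 1 FPKM and all 20 were highest in P6, and their sum was 5.39, 286, 30.02, 1554, 181 and 2259 FPKM in P1 through P6. All 19 passed 2 times in each of the 6 comparisons, lower in P1 over P2, P2 over P4 and P3 over P5 and higher in the other 3. Of 10 adipocyte markers, 8 reached 1 FPKM, with a sum of 181, 154, 248, 227, 360 and 350.4 FPKM from P1 to P6. *Fabp4* was the most abundant and was highest in P5, whereas *Cfd* (114 FPKM) and *Adipoq* (14.7 FPKM) stood at most at 0.337 and 0.785 FPKM outside P6, and *Lep* was at or near 0 throughout. Of 12 endothelial markers, 3 reached 1 FPKM, and the sum was 2.103, 2.998, 4.85, 19.5, 12.4 and 114 FPKM. *Esam* led with 62.0 FPKM in P6, and the defining markers *Pecam1* and *Cdh5* stayed at or below 0.992 and 0.343 FPKM.

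Of 7 erythroid markers, 5 reached 1 FPKM, with a sum of 60.0, 59.5, 190, 75.6, 120 and 237 FPKM from P1 to P6, most of it *Hba-a1*. Of 10 myeloid markers, 8 reached 1 FPKM, with a sum of 27.8, 50.6, 66.7, 33.8, 38.6 and 75.0 FPKM, led by *Cd14*. Of 10 mural markers, 8 reached 1 FPKM, with a sum of 69.8, 165, 274, 205, 330.5 and 120 FPKM, led by *Des*, and *Rgs5* stayed at or below 0.553 FPKM. Of 11 lymphoid markers, 10 were found and 3 reached 1 FPKM, with a sum between 1.71 FPKM in P5 and 8.20 in P2, led by *Cd79a*, and *Cd3e* was at or near 0. All 10 fibroblast markers reached 1 FPKM, led by *Dcn*, and their sum was 14027, 11100, 11023, 10954, 9073 and 10334 FPKM. *Col3a1*, at 2100.2 to 3389.6 FPKM in the other libraries, is listed at 0 in P2, a doubtful value, so the sum for P2 lacks this abundant marker. By at least 2 times, 5 of the 10 were lower in P6 than the mean of P1 to P5 and 0 higher. The shares over all genes were 9.25% lower and 12.0% higher. *Col1a1* and *Pdpn* were highest in P6, at 1735 and 125 FPKM. In P6, *Dcn* had 4350 FPKM, but *Lum* had 6.19, *Dpt* 8.70 and *Pdgfra* 5.36, against 1634 FPKM of *Dpt* and 152 of *Pdgfra* in P1. *Ptprc*, the gene of CD45, stayed at or below 0.755 FPKM. *Eng*, the gene of CD105, stood at 52.4, 52.2 and 42.6 FPKM in the libraries P1 to P3 and at no more than 0.728 FPKM in P4, P5 and P6. *Aldh1a2*, of the enzyme family behind the ALDH gate, did not follow the order of the gates, at 469, 78.8, 134, 285, 145 and 209 FPKM from P1 to P6. The part of these markers in the differences of the 10 genes between libraries was not tested.

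**Figure D4:**
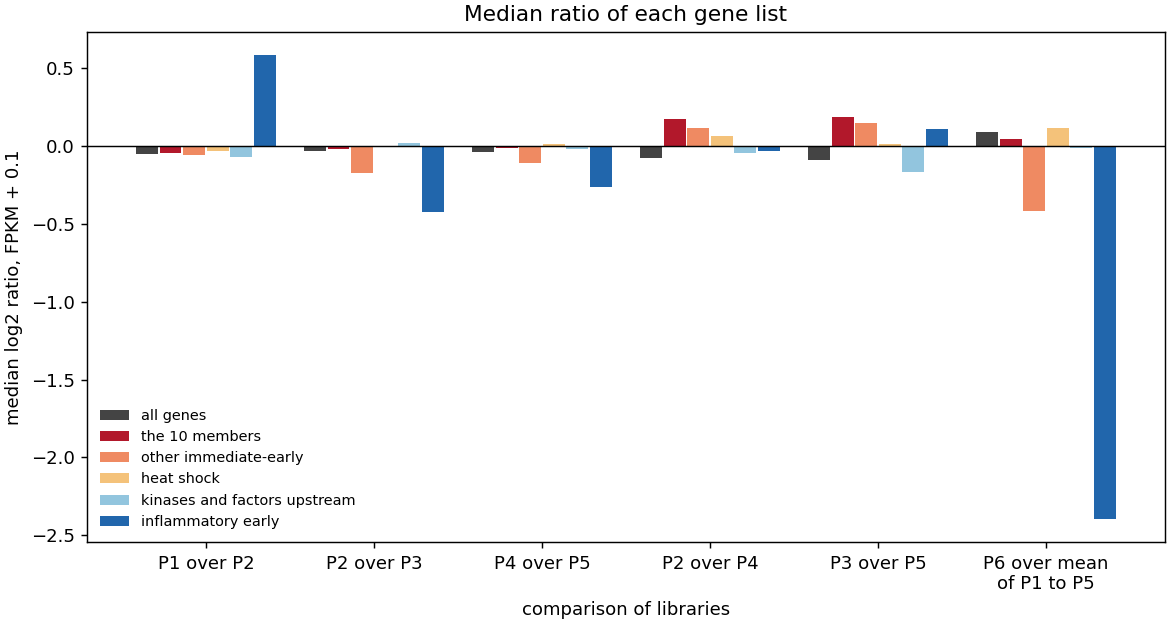
Median log2 ratio (FPKM + 0.1, as deposited) of all genes, the 10 genes and 4 other lists in the 6 comparisons of the libraries, as bars from 0. In P6 over the mean of P1 to P5 the inflammatory list lies at −2.39 and the other immediate-early genes at −0.41, both below 0 under all scalings, and the 10 genes at 0.04, which turned below 0 with the median of ratios or *Gapdh*.

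The 10 genes were set beside 59 other immediate-early genes. Of these, 57 reached 1 FPKM, and *Npas4* and *Dusp2* did not. A mean of at least 100 FPKM was held by 21 of them. *Dusp1*, a phosphatase of MAP kinases, was the most abundant, with 1263, 1127, 1084, 1012, 888 and 1032 FPKM in P1 through P6. *Socs3*, an inhibitor of cytokine receptor signalling, had 1107 FPKM in P1, 678 in P4 and 400.3 in P6, and *Btg2*, an antiproliferative factor, had between 291 FPKM in P4 and 418 in P3. *Rhob* ran from 511 FPKM in P1 to 254 in P6.

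The highest library was at least 2 times the lowest for 39 of the 57 (68.4%), against 37.4% of all genes, with a median ratio of 2.89 against 1.63. Many of the 57 stood at lower levels than the 10 genes, so the ranges of the lists are not compared at like levels. *Dusp5* had 2.39, 5.42, 11.5, 18.8, 25.4 and 47.2 FPKM from P1 to P6, the order of libraries seen for *Atf3*. *Ier3* had 34.4, 48.2, 91.7, 304, 384 and 294 FPKM in P1 through P6, so that the CD105- libraries and P6 stood above P1 to P3. The opposite held for *Errfi1*, a feedback inhibitor of EGF receptors, with 723, 558, 513, 323, 193 and 66.3 FPKM from P1 to P6. *Cebpd* likewise ran from 668 FPKM in P1 to 90.0 in P6, *Gadd45g* from 362 FPKM in P2 to 33.8 in P6 and *Myc* from 223 FPKM in P1 to 22.8 in P6. *Ctgf* had 20.01 FPKM in P2 and 1.95 in P5.

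Against the mean of P1 to P5, 4 of the 57 genes were at least 2 times higher in P6 and 14 lower. The shares over all genes were 12.0% higher and 9.25% lower. The median log2 ratio of the 57 was −0.41, and it stayed below 0 under all scalings. For P3 over P5, 11 of 56 were higher and 5 lower, against 7.33% and 6.29% of all genes. For P2 over P4, 6 of 56 were higher and 5 lower, against 4.90% and 7.63%. The medians of the list were 0.15 and 0.12, both above 0 under all scalings. Over all genes they were −0.09 and −0.08 as deposited. The counts along ALDH activity were 0 higher and 3 lower of 55 for P1 over P2, against 0.957% and 4.23% of all genes. For P2 over P3 they were 0 and 2, against 1.09% and 2.56%. For P4 over P5 they were 2 and 1, against 3.93% and 1.44%. The medians of the list were −0.06, −0.18 and −0.11, of which the median for P1 over P2 turned with the median of ratios.

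All of 18 kinases and transcription factors that act upstream of the immediate-early genes reached 1 FPKM. In 2 of them (11.1%), *Elk3* and *Rps6ka1*, the highest library was at least 2 times the lowest, against 37.4% of all genes. *Rps6ka1*, named after its values were seen, lay between 0.366 FPKM in P4 and 1.55 in P6, near the minimum of 1 FPKM. *Mapk3*, which encodes ERK1, lay between 69.1 and 86.8 FPKM. *Srf* had 16.4 to 18.9 FPKM in P1 to P5 and 25.5 in P6, and *Elk3* had 9.75 to 15.0 FPKM in P1 to P5 and 2.53 in P6. The median log2 ratio of the list in P6 was −0.01, which turned with a common sum. The 16 other bZIP genes that can pair with AP-1 proteins stood lower than the 10, with *Atf4* the most abundant at 98.1 to 140 FPKM. Against 37.4% of all genes, the highest library was at least 2 times the lowest for 5 of the 15 that reached 1 FPKM (33.3%). Among them *Ddit3*, the stress factor CHOP, ran from 10.9 FPKM in P1 to 32.8 in P6, *Creb5* from 12.7 FPKM in P1 to 2.03 in P5, and *Maf* lay between 41.5 FPKM in P6 and 105 in P5. The median log2 ratio of these genes in P6 was 0.04, which turned under all scalings but a common sum.

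Of 15 genes described as targets of AP-1, 13 reached 1 FPKM. Of these, 12 (92.3%) had a highest library at least 2 times the lowest, against 37.4% of all genes. The metallothioneins *Mt1* and *Mt2* led the list, with 1404 and 1605 FPKM in P1 and 568 and 612 in P6. *Plaur*, the urokinase receptor, had 6.50, 7.09, 10.9, 20.9, 29.4 and 47.1 FPKM in P1 through P6, again the order of *Atf3*. The protease *Mmp3* ran the other way, from 38.9 FPKM in P2 to 2.62 in P6. In P6, 1 of 12 targets was at least 2 times higher and 5 lower, against 12.0% and 9.25% of all genes. The median log2 ratio of the targets was −0.91 and lay below 0 under all scalings.

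Heat shock genes encode chaperones and are another group known to respond to handling. All 18 reached 1 FPKM and 5 (27.8%) had a highest library at least 2 times the lowest, against 37.4% of all genes. *Hspa8*, the constitutive HSP70, lay between 692 and 766 FPKM, and *Hspa5*, of the endoplasmic reticulum, between 488 and 546 FPKM. The inducible HSP70 genes *Hspa1a* and *Hspa1b* had 40.2 and 51.8 FPKM in P1 and 115 and 119.6 in P6. These 2 genes are near-identical copies, so the division of reads between them is uncertain. *Hspb1*, the small chaperone HSP27, had 158, 129, 166, 777, 765 and 1077 FPKM from P1 to P6, higher in the CD105- libraries and P6 than in P1 to P3. In P6, 4 of 18 were at least 2 times higher and 0 lower, against 12.0% and 9.25% of all genes. The median log2 ratio of the list was 0.12, against 0.09 over all genes. That of the list stayed above 0 under all scalings, though at 0.01 after division by *Gapdh*.

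Early inflammatory genes include several whose transcripts tristetraprolin binds. Of 15, 13 reached 1 FPKM and all 13 had a highest library at least 2 times the lowest, against 37.4% of all genes. *Cxcl1*, a neutrophil chemokine, had 327, 218, 268, 241, 305 and 58.0 FPKM in P1 through P6. *Il6* had 284, 190.4, 249, 151, 117 and 8.94 FPKM from P1 to P6, and *Ccl2* had 135, 104.1, 139.6, 149, 201 and 20.8 FPKM from P1 to P6. P6 was the lowest library for each of these. *Zfp36* was also lowest in P6, and a link between the 2 observations was not tested. *Has1*, a hyaluronan synthase, ran from 441 FPKM in P1 to 60.5 in P6 and *Ccl7* from 262 to 19.5 FPKM. In P6, 12 of the 13 were at least 2 times lower, against 9.25% of all genes. At least 2 times higher was 1 gene, *Hbegf*, named after its values were seen, against 12.0%. The median log2 ratio of the list was −2.39 and stayed below 0 under all scalings. For P1 over P2 the median of this list was 0.58, above 0 under all scalings. However, 1 of 12 was at least 2 times higher and 0 lower, against 0.957% and 4.23% of all genes. *Vcam1* and *Icam1* ran the other way. *Vcam1* had 54.5 FPKM in P1 and 73.3 in P2, and *Icam1*, named after its values were seen, 44.3 in P1 and 59.5 in P2.

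The 15 housekeeping genes had a median ratio of the highest to the lowest library of 1.34, against 1.63 over all genes. The ratio reached 2 for 1 of them, *Gusb* (6.67%), against 37.4%. *Eef1a1* was the most abundant and ran from 2359 FPKM in P6 to 3166 in P1. *Actb*, itself a known SRF target, lay between 885 and 947 FPKM. In P6 the median log2 ratio of the list was 0.07, which turned after division by *Gapdh* or scaling by the median of ratios.

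As deposited, the 10 genes did not rise and fall together over the libraries. After division by *Gapdh*, 10 of the 10 lay above 1 for P2 over P4, against 84.1% of all genes, and 9 for P3 over P5, against 86.8%. Correlations were computed on the deposited scale alone. Pearson correlations of log2(FPKM + 0.1) over n = 6 libraries were positive for 20 and negative for 25 of the 45 pairs, with a median r of −0.11, and 37 pairs kept their sign over the n = 5 libraries without P6. The points are 6 cell populations that share a tissue and a digestion protocol and are not replicates, so r is a description only. *Junb* went with *Ier2* (r = 0.98, Spearman rho = 0.77, r = 0.98 without P6) and *Nr4a1* (r = 0.95, rho = 0.94, r = 0.95 without P6). *Fosb* went with *Jun* (r = 0.88, rho = 0.94, r = 0.99 without P6), while its relation to *Atf3* rested on P6 (r = 0.83, rho = 0.54, r = 0.39 without P6). *Atf3* ran opposite to *Nr4a1* (r = −0.96, rho = −0.89, r = −0.93 without P6) and *Junb* (r = −0.93, rho = −0.94, r = −0.98 without P6). Averaged over the 10 genes, the log2 difference from each gene's own mean lay between −0.07 and 0.07 as deposited, a range of 0.13 that is smaller than the shifts made by division by *Gapdh* for P2 over P4 and P3 over P5.

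Of 4098 genes outside the lists with a mean of at least 5 FPKM and a range of at least 1.5 times, the 10 whose profile was most like this mean had r from 0.94 to 0.99, over n = 6 libraries, and the median r was −0.06. Since this mean is so flat, which genes are most like it may depend on the scaling, and likeness was not computed under the others. The 10 were *Lrg1*, *Hyal1*, *Gm20605*, *Nat6*, *Nupr1*, *Pdk4*, *Ppp2r3a*, *Mpzl1*, *Six5* and *Lcn2*. *Lrg1* had 1.46, 8.64, 10.6, 0.829, 1.39 and 15.8 FPKM in P1 through P6. *Nupr1*, a stress-induced nuclear protein, had 155, 181, 183, 133, 125 and 217 FPKM from P1 to P6. *Hyal1* and *Nat6* overlap on the same strand, so their reads may be divided unevenly between them.

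Promoter sequence was read for 8 of the 10 genes, all but *Egr1* and *Ier2*, since sequence was not used to choose the genes. Windows came from the RefSeq table of promoters for the mouse build GRCm38.p6. The 250 bases before each transcription start were searched on both strands. *Egr1* and *Ier2* are left out of the motif counts, and whether their promoters hold these motifs was not tested. The RefSeq start lay within 30 bases of a GENCODE M21 transcript start for 7 of the 8, but that of *Jund* was 1210 bases from the nearest. The CArG box, the site of SRF, was found in *Zfp36*, in 1.47% of the 32851 windows of all genes and in 1.13% of the 12008 windows of genes with at least 1 FPKM in a library. The EGR motif GCGNGGGCG was found in *Fosb*, *Zfp36* and *Nr4a1*, 3 of 8, in 4.70% of all windows and in 8.72% of those of expressed genes. TATAAA was found in *Fos*, in 12.4% of all windows and in 6.51% of those of expressed genes. The CRE TGACGTCA and the AP-1 site TGANTCA were in none of the 8 windows, in 1.55% and 6.75% of all windows and in 2.498% and 4.44% of those of expressed genes. These motifs do not overlap in the windows shown, and a match describes letters only. Sequence outside the 250 bases was not searched, so a gene without a match may still hold the site elsewhere. The 4 windows with a match are printed 5′ to 3′ on the strand of the gene, with the matched letters in capitals: *Fos* on the plus strand at chr12:85473640-85473889, with TATAAA 33 to 28 bases before the start, *Fosb* on the minus strand at chr7:19310046-19310295, with the EGR motif 50 to 42 bases before it, *Zfp36* on the minus strand at chr7:28379229-28379478, with the EGR motif 105 to 97 and the CArG box 58 to 49 bases before it, and *Nr4a1* on the plus strand at chr15:101266596-101266845, with the EGR motif 60 to 52 bases before it on the opposite strand.
Fos: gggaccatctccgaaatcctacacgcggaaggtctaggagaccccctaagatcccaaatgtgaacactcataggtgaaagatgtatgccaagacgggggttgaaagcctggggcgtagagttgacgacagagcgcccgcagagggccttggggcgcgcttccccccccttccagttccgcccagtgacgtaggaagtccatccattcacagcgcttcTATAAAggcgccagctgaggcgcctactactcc
Fosb: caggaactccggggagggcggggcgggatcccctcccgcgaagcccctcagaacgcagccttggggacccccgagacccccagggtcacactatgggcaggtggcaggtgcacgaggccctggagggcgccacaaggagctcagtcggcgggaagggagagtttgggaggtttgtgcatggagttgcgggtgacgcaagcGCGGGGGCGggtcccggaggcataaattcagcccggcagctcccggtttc
Zfp36: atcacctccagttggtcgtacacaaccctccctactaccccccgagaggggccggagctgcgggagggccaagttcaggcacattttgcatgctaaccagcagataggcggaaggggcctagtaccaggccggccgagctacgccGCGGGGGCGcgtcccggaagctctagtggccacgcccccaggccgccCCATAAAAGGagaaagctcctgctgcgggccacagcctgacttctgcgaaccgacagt
Nr4a1: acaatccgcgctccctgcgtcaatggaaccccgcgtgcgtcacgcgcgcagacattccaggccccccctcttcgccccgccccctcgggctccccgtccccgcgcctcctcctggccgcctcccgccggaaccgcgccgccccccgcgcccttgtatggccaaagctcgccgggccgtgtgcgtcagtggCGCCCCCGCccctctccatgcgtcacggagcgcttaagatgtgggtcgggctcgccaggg

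The 4 genes with a match had unlike profiles. *Fos* and *Fosb* were highest in P6 and *Nr4a1* and *Zfp36* lowest there, and for *Fos* this place was lost after division by *Gapdh* or quantile normalization. *Fosb*, *Zfp36* and *Nr4a1*, which share the EGR motif, had ratios of P6 to the mean of P1 to P5 of 1.77, 0.673 and 0.690. The level of *Egr1* over the same libraries ranged by a ratio of 1.14 as deposited and 1.70 after division by *Gapdh*. A link between the motif, the level of *Egr1* and these profiles was not tested.

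The 3′ untranslated regions of the 10 genes were searched for the pentamer ATTTA, the core of AU-rich elements that mark short-lived mRNAs. It was present in 9 of the 10, all but *Ier2*, and in 69.4% of 11408 other expressed coding genes. The median number per kilobase was 2.89 in the 10 genes and 1.31 in the others. *Nr4a1* had 5.52 per kilobase, *Fos* 4.91, *Junb* 4.12, *Zfp36* 3.88 and *Jun* 3.24, while *Fosb* had 0.466. The longer motif TTATTTATT, a binding site of tristetraprolin, was present in *Fos* and *Zfp36*, 2 of the 10, and in 7.74% of the other genes.

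Several of the genes have few exons. In the GENCODE M21 annotation of GRCm38, *Jun*, *Junb*, *Jund* and *Ier2* have a single exon, 4 of 10, against 2.41% of 11634 expressed genes, and with *Egr1* and *Zfp36*, 6 of 10 have at most 2 exons, against 6.85%. *Fos* lies at chr12:85473890-85477273 on the plus strand, *Fosb* at chr7:19302696-19310051 on the minus strand and *Jun* at chr4:95049034-95052222 on the minus strand. *Junb* (chr8:84974484-84978718, minus strand), *Jund* (chr8:70698949-70700616, plus strand) and *Ier2* (chr8:84661331-84662852, minus strand) share chromosome 8. *Atf3* spans chr1:191170296-191218039 on the minus strand, *Nr4a1* chr15:101254269-101274795 on the plus strand, *Zfp36* chr7:28376784-28380253 on the minus strand and *Egr1* chr18:34859823-34864984 on the plus strand. The library kit does not mark strand, so reads from a gene and from an antisense partner cannot be told apart. This bears on *Jund*, where the antisense gene *Gm11175* covers 52.6% of the exon bases, and on *Jun*, where *Junos* covers 7.28%. *Prdx2* overlaps the span of *Junb* but none of its exon bases, and had between 106 and 136 FPKM.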

How the data were processed

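FPKM values were used as the authors deposited them, 1 library for each of the 6 populations. The submitters' processing notes name TopHat2 2.0.7, Cufflinks 2.1.1 and the build mm10. The 495 extra entries sharing a symbol were summed, none of them for the 10 genes. Logarithms were taken of FPKM + 0.1. Genes with at least 1 FPKM on either side of a comparison were counted as past a ratio of 2, and a level of 100 FPKM was used. Depth was estimated from values of up to 10 reads, of which 53.0% to 58.6% lay within 0.05 of a whole number, for transcripts of at least 800 nt and fragments of 200 nt, and the method was tested on simulated data. The 10 genes were named by the list itself. From lists of other immediate-early, AP-1 partner, upstream, heat shock, early inflammatory, AP-1 target and housekeeping genes, gate genes and cell type markers, up to 6 genes of the highest mean and 6 of the widest range (mean of at least 5 FPKM) could be named. Members and lists were chosen with earlier results of these data known. The lists share some genes, such as *Srf*, *Creb1*, *Fosl1* and *Pdgfra*, so their counts and medians are not independent. Alternatives were 4 scalings, other folds, levels, minima and pseudocounts, and leaving out P6 or P4. Computation used Python 3.11.15 with pandas 2.3.3, numpy 2.4.6 and scipy 1.17.1, and plots matplotlib 3.10.9.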

Additional observations from a re-analysis of the deposited data

Results flagged for a closer look

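For *Junb* and *Egr1*, the ratio of intermediate to low ALDH activity, as deposited, lay below 1 in CD105+ cells and above 1 in CD105- cells, though for *Junb* the former was not below 1 beyond counting error. *Junb* had a ratio of P2 to P3 of 0.994 (95% interval 0.987 to 1.00002) and a ratio of P4 to P5 of 1.10, and the former was 0.89999 times the latter. *Egr1* had 0.994 (0.989 to 0.999) and 1.03 (1.03 to 1.04), and the former was 0.962 times the latter. With 1 library for each population the difference was not tested. The ratio of P2 to P3 of both genes turned above 1 after division by *Gapdh* or scaling by the median of ratios. The ratio of P4 to P5 of *Egr1* turned below 1 with quantile normalization, under which *Junb* was level in both.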

How the results depend on the processing

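With 1 library for each population, no paired analysis could be made. All 10 genes kept at least 100 FPKM in every library under the 4 other scalings and without P6 or P4, and met levels of 50 and 200 FPKM. Leaving out P4 for the counts, and P6 for this count, was chosen after seeing the data. The number of genes whose highest library was at least 2 times the lowest was 2 as deposited, 1 with the median of ratios, 3 with *Gapdh* (where *Junb* and *Nr4a1* entered and *Atf3* dropped out), 0 without P6, 6 at a ratio of 1.5 and 0 at a ratio of 3, the last 2 by construction. Of the counts past a ratio of 2 in the comparisons, 89 alternatives did not move and 3 did: 1 gene higher for P3 over P5 with *Gapdh*, 1 higher for P6 with quantile normalization, and 2 higher for P6 at a ratio of 1.5. The median log2 ratio of the 10 genes moved in 24 alternatives. In the order P1 over P2, P2 over P3, P4 over P5, P2 over P4, P3 over P5 and P6 over the mean of P1 to P5, it was −0.0791, −0.0469, −0.0553, 0.21, 0.20 and 0.0984 with a common sum of FPKM. It was 0.0217, 0.0268, 0.0192, 0.27, 0.27 and −0.0544 with the median of ratios, −0.0187, 0.0224, 0.0966, 0.65, 0.73 and −0.0793 after division by *Gapdh*, and −0.15, −0.0912, −0.0542, 0.0705, 0.0582 and 0.12 under quantile normalization. What caused these shifts was not tested. Over all alternatives the ratio of the highest to the lowest library ran from 1.14 to 1.70 for *Egr1* and from 1.69 to 2.88 for *Atf3*. Counting error was small at these levels, and variation between mice or sorts, which 1 library for each population does not show, limits every comparison.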
